A study of Arabidopsis thaliana with 6 samples.

Results

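The response of Arabidopsis thaliana shoots to β-estradiol was compared between 3 h and 5 h after the inducer was added. All 6 samples were shoots of 2-week-old Col-0 seedlings of line 1 of MYB112-IOE, a transgenic line in which estradiol switches on the transcription factor MYB112. Estradiol was given at 10 µM and the control plants received DMSO, the solvent. Each treatment had 1 Affymetrix ATH1 array at 3 h and 2 arrays, called biological replicates in the labels, at 5 h. Plates stood in continuous light at 22 °C and 100 µmol m-2 s-1, and seedlings were shaken in liquid medium for 16 h before the inducer was added. Both treatments carried the same construct in 1 line, and no wild-type plants given estradiol were part of this comparison, so that an effect of MYB112 and an effect of estradiol cannot be told apart. For each probe set the estradiol value minus the DMSO value was taken within pairs that share time and replicate number. The late minus early difference is the mean of the 2 differences at 5 h minus the difference at 3 h, on the log2 scale throughout, so that 1 is a 2-fold change. It was formed for the 14520 of 22746 probe sets with a value of at least 3.56 in at least 2 of the 6 arrays, of which 7855 have 1 named gene. Levels were compared only within pairs, since the pairs appear to have been normalized separately.

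Inducible systems of this kind rest on a hybrid activator that binds estradiol and then drives the chosen gene. The factor must first be made and accumulate, so genes near the start of its regulatory chain are looked for at early times, and genes that respond through intermediates at later ones. MYB112 belongs to the R2R3-MYB factors, a large plant family that controls, among others, the phenylpropanoid and anthocyanin pathways. The experiment was set up to find candidate direct or early targets of MYB112, and the contrast of times asks which responses were already present at 3 h.

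The 3 pairs differed in how widely their values were spread. The SD of the estradiol minus DMSO differences over probe sets was 0.26 at 3 h, 0.33 in replicate 1 of 5 h and 0.41 in replicate 2 of 5 h. Exactly equal values in both arrays of a pair were found for 14.2% of the probe sets at 3 h, 13.0% in replicate 1 and 3.89% in replicate 2 of 5 h. A difference of 0.00 below is such a tie, also where the level is well above the lowest value of the pair (2.10, 2.14 and 2.16). Both arrays of a pair were under 3.56 for 642 probe sets at 3 h, 721 in replicate 1 and 987 in replicate 2 of 5 h. There a fall could not be measured, and no rise reached 3.56. As a check of tissue, RCA (rubisco activase) and LHCB4.1 (a light-harvesting protein) had values of 12.72 to 13.84 in all arrays. The root-hair expansins EXPA7 and EXPA18, the 2 root markers of 12 with a named probe set, had values of at most 2.96.

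Across all probe sets the early and late responses were only weakly alike. The Pearson correlation of the differences across probe sets was 0.26 between 3 h and replicate 1 of 5 h, 0.30 between 3 h and replicate 2, and 0.37 between the replicates of 5 h. Without the most strongly induced probe set these values were 0.21, 0.26 and 0.34. The Spearman correlations over all probe sets were 0.16, 0.22 and 0.28. These are descriptions over probe sets, which are not independent, and the arrays of one pair share their processing. The gap between single pairs had an SD of 0.36 from 3 h to replicate 1 and of 0.42 from 3 h to replicate 2, beside 0.42 between the replicates of 5 h. The late minus early difference, which averages the 5 h pairs, had a median of 0.02 and an SD of 0.33. It was above 0 for 52.4% and below 0 for 45.7% of the probe sets. A 2-fold higher value was reached by 136 probe sets (0.937%) and a 2-fold lower one by 78 (0.537%), together 1.47%. For 4049 probe sets (27.9%) the 3 h difference lay farther from the nearest 5 h pair than the 5 h pairs lay from each other, and 93 of the 136 and 44 of the 78 were among them. A limma test on the 3 within-pair differences (two-sided, 1 residual degree of freedom, the single 3 h pair assumed to vary like those of 5 h) called 0 of 14520 probe sets (0%), with 425 at an unadjusted p under 0.05 (2.93%) and a smallest adjusted p of 0.988. The same test without the replicate block, as a 4-group fit, also called 0, with 25 at an unadjusted p under 0.05. Every late minus early difference below is thus a description, and the SE given with some is limma's. An exact permutation of 1 pair against 2 cannot give a p below 0.333.

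**Figure D1:**
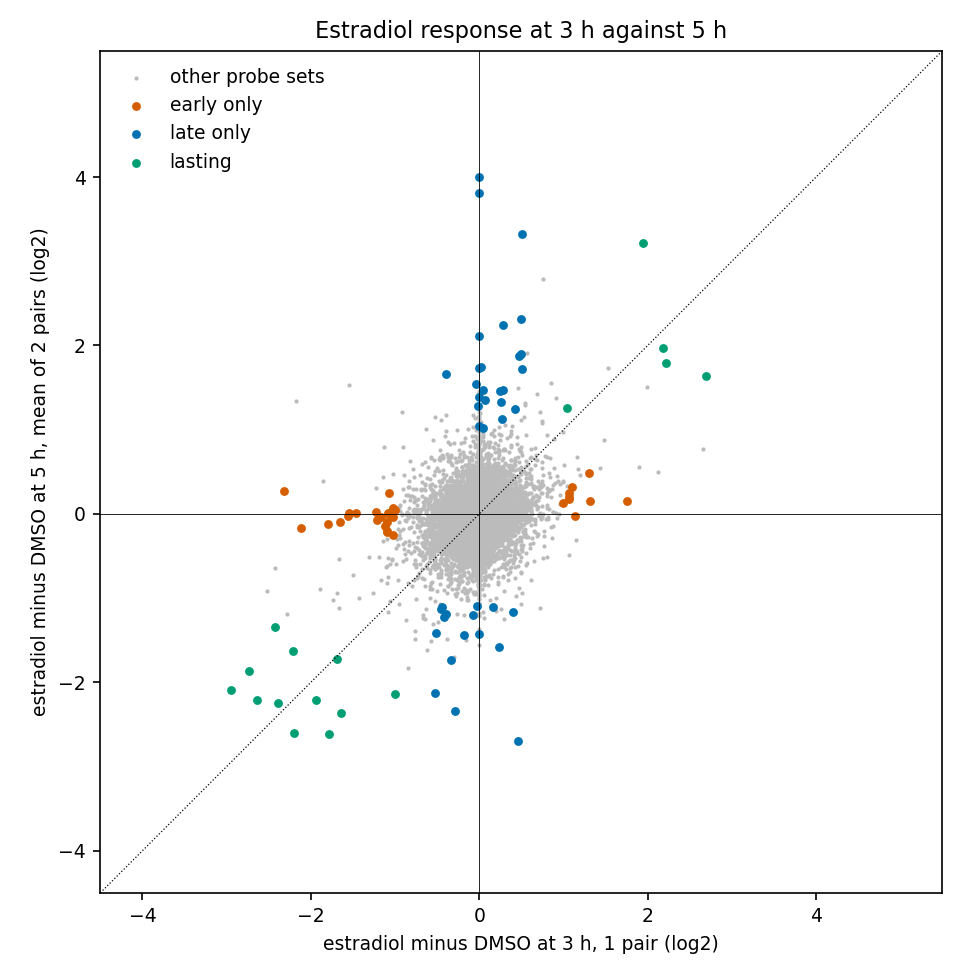
Each point is a probe set, with the estradiol minus DMSO difference at 3 h (x axis, 1 pair, log2) against the mean of the 2 pairs at 5 h (y axis, log2), and the dotted line marks equal values. Coloured points are at least 2-fold apart at 3 h only (9 higher and 21 lower), in both 5 h pairs only (24 and 16) or in all pairs (6 and 12). The most strongly induced probe set, at 8.21 and 10.10, lies outside the axes.

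The most strongly induced probe set has no named gene in the annotation used, and MYB112 was named on no probe set, so its level is not reported. At 3 h the probe set had 10.80 with estradiol and 2.59 with DMSO. At 5 h it had 12.87 and 2.70 in replicate 1 and 13.30 and 3.27 in replicate 2. Estradiol was the higher treatment in every pair, and the differences of 8.21, 10.17 and 10.03 set the 3 h pair below both 5 h pairs. The late minus early difference was 1.89 (SE 0.17, limma adjusted p = 0.988), while the 5 h pairs lay 0.14 apart. DMSO values near the lowest value of each pair make the size of each difference depend on that limit.

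The overlap between 3 h and 5 h was partial in both directions. At 3 h, 31 probe sets (0.213%) were higher by 2-fold or more and 67 (0.461%) were lower by as much. In both 5 h pairs, 33 (0.227%) were higher and 33 (0.227%) lower by that fold. The higher lists shared 6 probe sets, 19.4% of the early and 18.2% of the late list, and the lower lists shared 12, or 17.9% and 36.4%. Between the replicates of 5 h the overlap was partial too. Singly, replicate 1 had 137 higher and 88 lower, replicate 2 had 167 and 288, and 33 were shared in each direction. Partial overlap is thus not particular to the contrast of times. Of the 67 probe sets chosen for low values at 3 h, with a median of -1.23, the medians at 5 h were -0.11 and -0.55, and 11 were at 0 or above in both pairs. Of the 33 chosen for high values in both 5 h pairs, the median at 3 h was 0.28, and 24 were above 0 there. Values chosen for being extreme at one time tend to be smaller at another, so these shrinkages are no measure of time. No probe set was 2-fold apart at 3 h and at least 1.5-fold the other way in both 5 h pairs (0%).

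Late-only probe sets were at least 2-fold apart in both 5 h pairs and under 1.5-fold at 3 h. There were 24 higher (0.165%), of which 18 have a named gene, and 16 lower (0.11%), of which 8 have one. Among the higher ones 6 were under 3.56 in both arrays at 3 h, so that a rise to 3.56 was absent there and a smaller one could not be measured. Among the lower ones 1 was, where a fall could not be measured. Exactly equal values at 3 h were found for 6 of the 24 and for 1 of the 16 (14.2% of all probe sets).

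UGT85A2, a UDP-glucosyltransferase of the family that attaches sugars to small molecules, had the 5 h pairs closest to each other among the 18 named late-higher genes, 0.01 apart. Its values with estradiol and DMSO were 10.12 and 9.65 at 3 h, 11.40 and 9.52 in replicate 1 of 5 h, and 11.26 and 9.39 in replicate 2. Estradiol was the higher treatment in all 3 pairs, and the differences of 1.88 and 1.87 at 5 h both exceeded the 0.47 at 3 h. This gave a late minus early difference of 1.41 (SE 0.09, limma adjusted p = 0.988).

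AT4G38950, which encodes a kinesin-like motor protein, had equal values of 5.31 in both arrays at 3 h. Such exact ties made up 14.2% of the probe sets in that pair, and whether they are measured equality was not tested. At 5 h AT4G38950 had 8.64 with estradiol against 4.50 in replicate 1 and 7.77 against 4.29 in replicate 2. The treatments were apart only in the 5 h pairs, by 4.14 and 3.48, and the late minus early difference was 3.81 (SE 0.42, limma adjusted p = 0.988). AT3G18250 had 6.76 and 6.25 at 3 h, 7.60 and 4.82 in replicate 1 and 9.29 and 5.43 in replicate 2 of 5 h. All 3 pairs were higher with estradiol, the 3 h pair least, and the late minus early difference was 2.81 (SE 0.63).

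AT5G19875 had 6.37 with estradiol and 6.09 with DMSO at 3 h, 6.47 and 4.48 in replicate 1 of 5 h, and 6.20 and 3.70 in replicate 2, with a late minus early difference of 1.97 (SE 0.34). Estradiol was the higher treatment in all 3 pairs. AT5G38320, with a late minus early difference of 4.0, had values of 2.10 in both arrays at 3 h, the lowest of that pair, and DMSO values of 2.39 and 2.16 at 5 h. AT1G54890, at 1.82, likewise had 2.62 and 2.12 at 3 h, under the level at which a change could be measured.

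AT5G52810, known as SARD4, an enzyme of pipecolic acid synthesis in systemic immunity, had differences of 0.51 at 3 h and of 1.45 and 1.99 at 5 h. AT1G66090, a TIR-NBS type resistance gene, was at -0.39 at 3 h and at 2.26 and 1.06 at 5 h, a late minus early difference of 2.05. AT5G44910, with a TIR domain, was at 0.28, 1.03 and 1.92. AT1G12010, a 1-aminocyclopropane-1-carboxylate oxidase of the ethylene pathway, was at 0.00, 1.00 and 1.08, with both 3 h arrays at 2.15. In AT1G66090 the 2 times had opposite signs, and in the other 3 genes no pair was below 0. AT2G29340, a short-chain dehydrogenase, was at 0.27, 1.2 and 1.06.

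The remaining named late-higher genes were AT4G20460, AT2G25530, AT4G24380, AT4G27657, AT4G19460, AT3G18560 and AT5G58790, with late minus early differences from 0.82 to 1.74. The 6 late-higher probe sets without a named gene had late minus early differences from 0.98 to 2.11. In all of them the 3 h difference lay below both 5 h differences, which the class definition fixes.

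The defensin gene PDF1.2b had the lowest late minus early difference of all 14520 probe sets. PDF1.2 and PDF1.2b encode antifungal plant defensins that jasmonate and ethylene together are known to induce. PDF1.2b had 9.63 with estradiol and 9.17 with DMSO at 3 h, 7.69 and 9.57 in replicate 1 of 5 h, and 5.18 and 8.70 in replicate 2. Estradiol was the higher treatment at 3 h and the lower one in both 5 h pairs, by 1.88 and 3.52. Late minus early came to -3.16 (SE 0.93, limma adjusted p = 0.988), where the 5 h pairs lay 1.64 apart. PDF1.2 had 7.90 and 7.18 at 3 h, 6.37 and 7.68 in replicate 1, and 5.15 and 6.08 in replicate 2, and its late minus early difference was -1.84 (SE 0.28). PDF1.4, a related defensin, was at 0.35, -0.06 and -1.06. The probe set of PDF1.2b is of a kind that can bind transcripts of close relatives, so the defensin values may not be independent of each other.

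**Figure D2:**
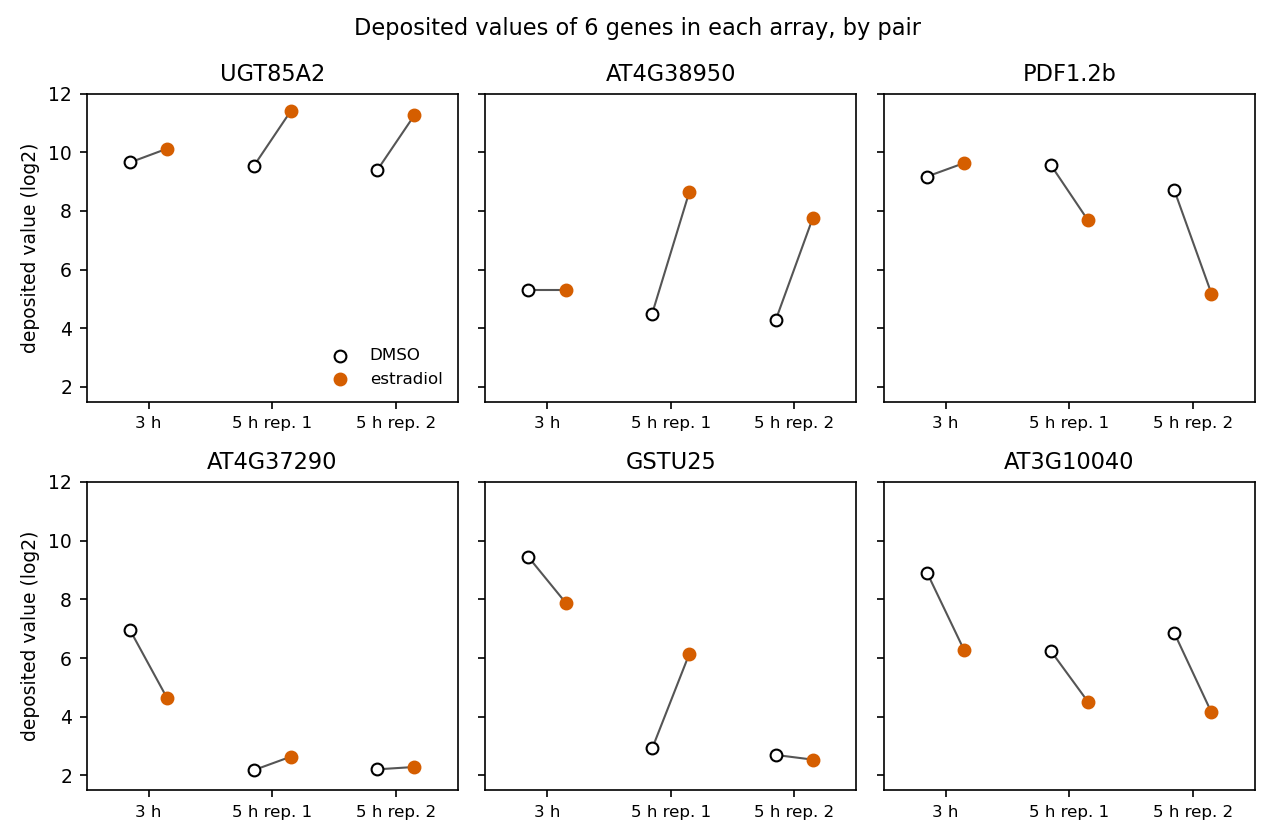
Deposited values (y axis, log2) of 6 genes in every array, by pair (x axis), with DMSO as open and estradiol as filled circles joined within a pair. UGT85A2 and AT4G38950 separate in both 5 h pairs, PDF1.2b has opposite signs at 3 h and 5 h, AT4G37290 is near the lowest values at 5 h, GSTU25 differs in sign between the replicates of 5 h, and AT3G10040 is lower with estradiol in all pairs.

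Other late-lower genes included AT2G43590, a chitinase-family gene, with differences of -0.29 at 3 h and of -1.24 and -3.43 at 5 h. The 5 h pairs of AT2G43590 were farther apart than the nearer of them was from 3 h. AT4G28085 was at 0.00, -1.3 and -1.55, AT3G19470 at -0.07, -1.35 and -1.04, and AT1G75960, an AMP-dependent synthetase, at -0.03, -1.04 and -1.15. PGM, annotated as a phosphoglycerate/bisphosphoglycerate mutase, was at -0.42, -1.14 and -1.32. AT5G12050 was at -0.44, -1.17 and -1.03, with values of 9.10 to 10.42 in all 6 arrays. AT3G07350 had a late minus early difference of -1.26 from 3 h values of 2.78 and 2.96.

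Besides PDF1.2, 4 of the named genes with the lowest late minus early differences outside this class were higher with estradiol at 3 h and lower at 5 h. AT4G24810 was at 0.76, -0.63 and -0.42, AT2G40480 at 0.47, -0.80 and -0.97, AT4G24350 at 0.34, -0.67 and -0.91, and AT4G11290, a class III peroxidase, at 0.20, -0.71 and -1.60. The differences of each of these at 5 h had the opposite sign to that at 3 h, and a gap to 3 h above the spread of the 5 h pairs was a condition of their choice.

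**Figure D3:**
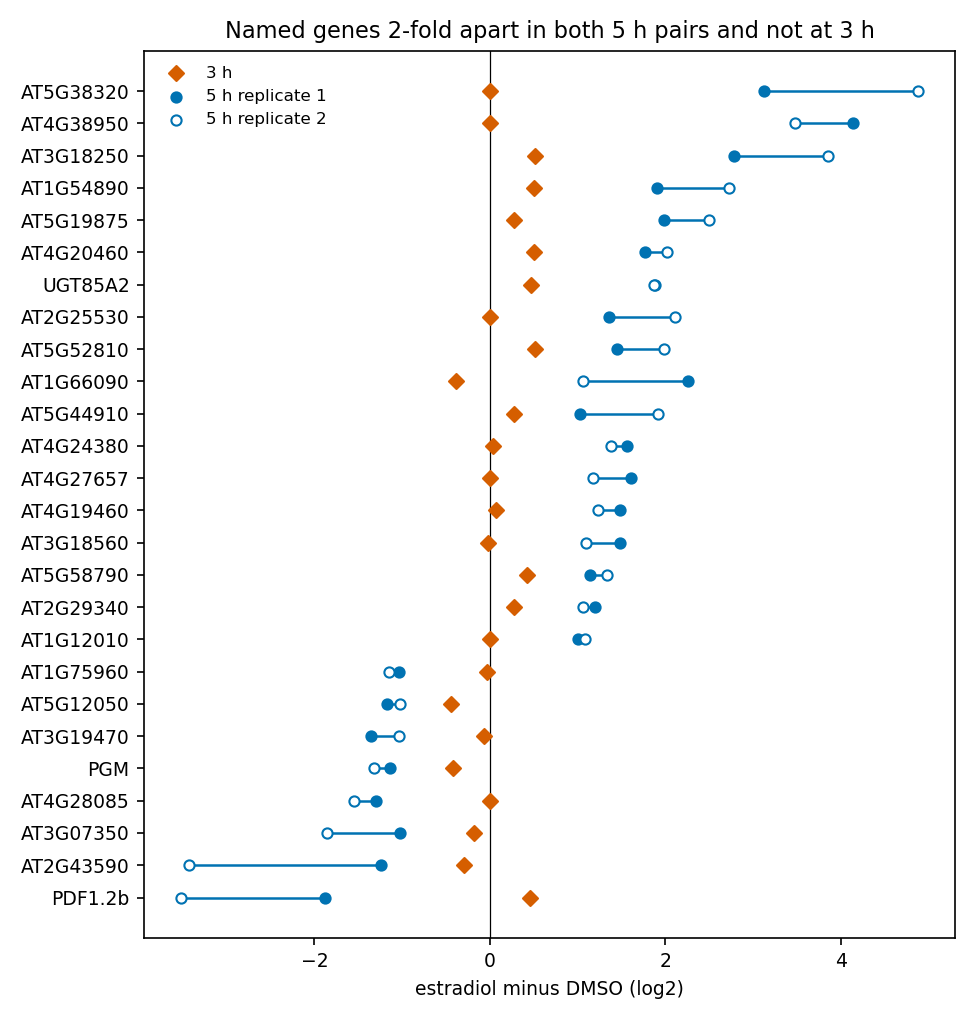
Estradiol minus DMSO difference (x axis, log2) of the 26 named genes that were at least 2-fold apart in both 5 h pairs and under 1.5-fold apart at 3 h. Diamonds mark the 3 h pair, circles the 2 pairs at 5 h, joined by a line. By definition the 18 upper genes have 5 h values right of their 3 h value and the 8 lower genes left of it.

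Early-only probe sets were at least 2-fold apart at 3 h and under 1.5-fold in both 5 h pairs. They numbered 9 higher (0.062%), of which 5 have a named gene, and 21 lower (0.145%), of which 14 have one. Exactly equal values in at least 1 of the 5 h pairs were found for 9 of the lower ones. Over all probe sets such ties were 13.0% in replicate 1 and 3.89% in replicate 2. For 9 of the 21 lower ones, both arrays were under 3.56 in both 5 h pairs, and for 12 in at least 1 of them. Of the 9 higher ones, the same held for 2 in both 5 h pairs and for 4 in at least 1. A difference at or near 0 in such a 5 h pair means that no difference could be measured under 3.56. It does not show that a response had ended.

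AT4G37290 and AT2G23270, which encode precursors of PIP peptides that plants secrete in immune responses, were lower with estradiol at 3 h. AT4G37290 had 4.64 with estradiol and 6.96 with DMSO at 3 h, 2.64 and 2.18 in replicate 1 of 5 h, and 2.29 and 2.21 in replicate 2. AT2G23270 had 3.70 and 5.35 at 3 h, 2.79 and 2.95 in replicate 1, and 2.27 and 2.31 in replicate 2. The treatments were apart by 2.32 and 1.65 at 3 h, and every 5 h value was under 3.56. Late minus early gave 2.59 (SE 0.23) and 1.55 (SE 0.10), with a limma adjusted p of 0.988 for each.

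The neighbouring genes AT2G32020 and AT2G32030, which encode acyltransferase-like proteins of the GNAT type, showed the same arrangement. Their 3 h values were 5.91 with estradiol against 6.98 and 6.52 against 7.69, and their 5 h values were between 2.14 and 2.53. UGT76E12, a glucosyltransferase, was at -1.08 at 3 h, with 5 h values of at most 3.06. Outside the class because 1 of their 5 h pairs passed 1.5-fold, AT3G28580, an AAA-type ATPase, was at -1.85 at 3 h from a DMSO value of 6.77, and at 0.00 and 0.77 at 5 h from DMSO values of 2.26 and 2.85. NDB4, an alternative NAD(P)H dehydrogenase, was at -1.14, 0.73 and 0.14, also from DMSO values under 3.56 at 5 h.

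Other early-lower genes could be measured at both times. AT1G19530, a gene of the low-oxygen response, had 6.0 and 8.12 at 3 h, 4.47 and 4.89 in replicate 1 of 5 h, and 6.48 and 6.40 in replicate 2. The difference of -2.12 at 3 h stood against -0.42 and 0.08, a late minus early difference of 1.95 (SE 0.34, limma adjusted p = 0.988). AT2G37750 was at -1.80, 0.00 and -0.24, from DMSO values of 7.11, 5.65 and 4.15. AT5G62910 was at -1.1, -0.11 and -0.30, AT5G17350 at -1.12, 0.22 and -0.51, and AT2G36350, a protein kinase gene, at -1.23, 0.33 and -0.28. The class definition fixes that the 3 h difference lay below both 5 h differences.

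The 5 named early-higher genes had 3 h differences of 1.0 to 1.32. AT4G19430 had 5.15 with estradiol and 3.83 with DMSO at 3 h, and 5 h values that were all under 3.56. AT2G40435 was at 1.3, 0.53 and 0.43, AT2G31010 at 1.07, 0.14 and 0.27, and AT3G48710 at 1.06, 0.30 and 0.06. AT2G40435 had 3.15 and 2.72 in replicate 2 of 5 h, and AT2G31010 had 2.72 and 2.58 in replicate 1, all under 3.56. The 3 h values of AT2G31010, 3.58 and 2.51, were close to or under that level. CYP71B23, a cytochrome P450, was at 1.00, 0.46 and -0.21, and its 5 h pairs were farther apart than the nearer was from 3 h.

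**Figure D4:**
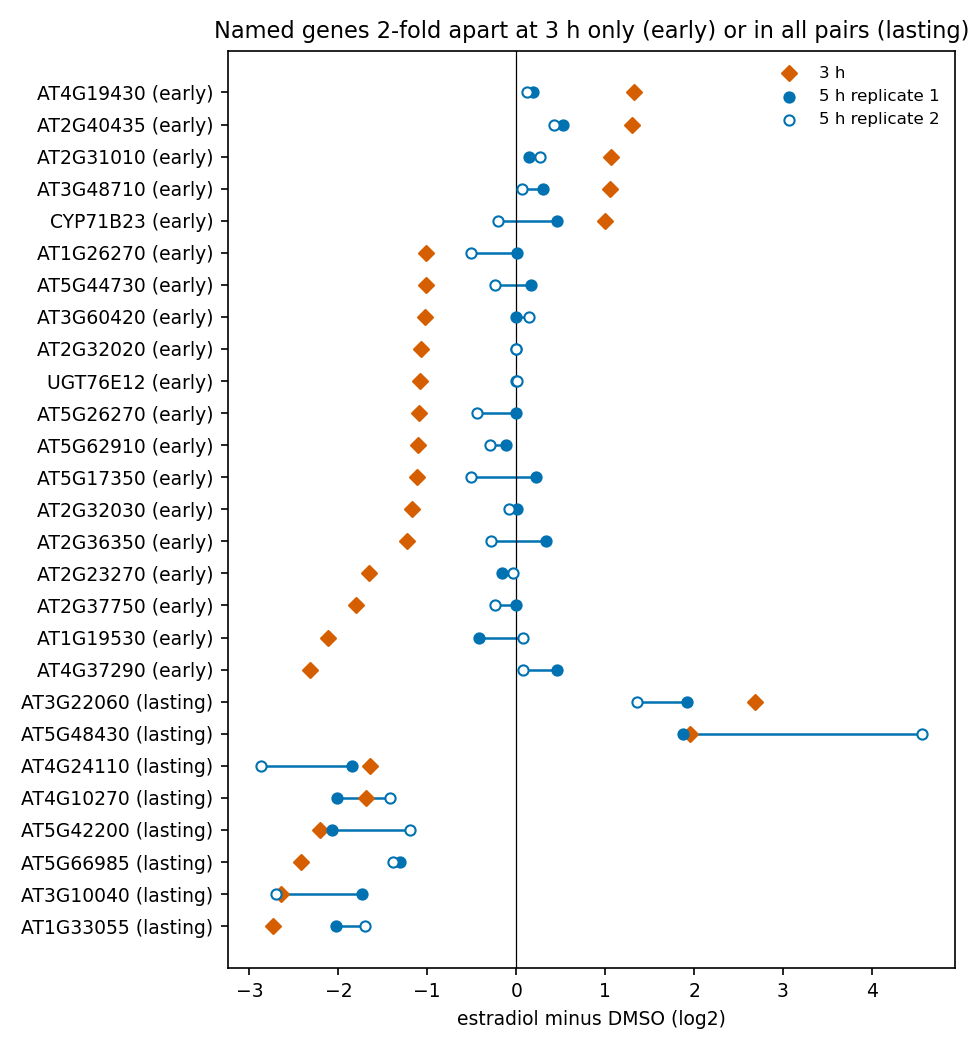
Estradiol minus DMSO difference (x axis, log2) of the 19 named early-only genes and the 8 named genes at least 2-fold apart in all 3 pairs (lasting). Diamonds mark the 3 h pair and circles the 2 pairs at 5 h. By definition the early genes have 5 h values within 0.585 of 0. Among the lasting genes, AT3G10040 has its 3 h value within the range of 5 h and AT5G66985 has it 1.04 below the nearest 5 h value.

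Lasting probe sets passed 2-fold with 1 sign at 3 h and in both 5 h pairs, and there were 6 higher (0.0413%) and 12 lower (0.0826%). Their late minus early medians were 0.00 and 0.06. AT3G22060, a cysteine-rich secretory protein of the receptor-kinase-related type, had 9.99 and 7.30 at 3 h, 8.22 and 6.30 in replicate 1 of 5 h, and 6.96 and 5.6 in replicate 2. Its difference of 2.69 at 3 h exceeded those of 1.92 and 1.36 at 5 h, for a late minus early difference of -1.05 (SE 0.35). AT5G48430, an aspartyl protease gene, was at 1.95, 1.87 and 4.56, so that its late minus early difference of 1.27 rested on replicate 2 and was -0.08 without it.

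All 6 named lasting-lower genes belong to the core low-oxygen response, a set induced in Arabidopsis when oxygen is short. The list was drawn up with earlier results of these data known and is no independent evidence. Of its 48 entries 24 had a named probe set, and all 24 passed the filter. In all 23 lists together 91 of 392 entries had a named probe set and 79 passed the filter. Most entries missing from this list and those below thus had no named probe set, which says nothing of their expression. All 24 low-oxygen genes were below 0 at 3 h (50.1% of all probe sets were). At least 2-fold lower were 17 at 3 h (0.461% of all probe sets) and 8 in the mean of the 5 h pairs (0.53%). The medians were -1.54 at 3 h, -0.36 in replicate 1 and -1.0 in replicate 2 of 5 h. The late minus early difference was above 0 for 20 of 24 members (52.4% of all probe sets), with a median of 0.52 against 0.02, and at least 2-fold higher for 6 of 24 (0.937%). It subtracts the 3 h value, so these counts are not independent of the low values at 3 h.

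Within the list, AT5G66985 had 5 h pairs only 0.07 apart. Its values with estradiol and DMSO were 8.38 and 10.80 at 3 h, 4.14 and 5.45 in replicate 1 of 5 h, and 8.26 and 9.64 in replicate 2. All 3 pairs were lower with estradiol, at -2.42, -1.31 and -1.38, and the late minus early difference was 1.08 (SE 0.15, limma adjusted p = 0.988). AT1G33055 was at -2.74, -2.03 and -1.70. AT3G10040 (HRA1, a regulator of this response) was at -2.64, -1.73 and -2.70, so that its 3 h difference lay within the range of 5 h. AT4G24110 was at -1.64, -1.85 and -2.87, with no smaller difference at 5 h. For AT2G17850 (-2.52, 0.00 and -1.82) and AT5G10040 (-2.43, -0.06 and -1.23) the low response at 5 h was that of replicate 1, where AT2G17850 had 3.27 in both arrays and AT5G10040 2.64 and 2.70. In that replicate the members FHL, with 2.76 and 2.79, and AT4G17670, with 2.49 in both arrays, were also under 3.56. A fall could not be measured there in any of these genes, which can raise their late minus early difference. The fermentation enzyme gene PDC2 (pyruvate decarboxylase) was one of 4 members with a late minus early difference below 0, with -0.36, -0.60 and -0.81.

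The detoxification list, 4 of 22 entries above the filter, had a median late minus early difference of 1.66, with 4 of 4 above 0 (52.4% of all probe sets) and 3 at least 2-fold higher (0.937%). GSTU25, a glutathione transferase, had 7.89 and 9.44 at 3 h, 6.14 and 2.92 in replicate 1 of 5 h, and 2.54 and 2.70 in replicate 2. The pairs at 5 h disagreed, at 3.22 and -0.16, and the late minus early difference of 3.08 (SE 1.90) was smaller than the gap of 3.38 between them. UGT73B4 was at -1.13, 1.51 and 0.07, with a gap of 1.44 between the 5 h pairs and a late minus early difference of 1.92. Of the list, UGT85A2 alone had 5 h pairs closer to each other than to 3 h.

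The touch and rapid wound list, genes that respond within minutes to handling, had 5 of 19 entries above the filter. All 5 were below 0 at 3 h (50.1% of all probe sets) and above 0 in the late minus early difference (52.4%), with a median of 0.47. These counts are not independent, since the late minus early difference subtracts the 3 h value. CML38, a calmodulin-like protein that is also in the low-oxygen list, was at -1.06, 0.05 and -1.23. CML37 was at -0.82, 0.05 and -0.09, with 5 h values of at most 2.27. AT4G29780 was at -0.54, 0.82 and -0.39. All 5 members were above 0 in replicate 1 of 5 h and below 0 in replicate 2.

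The ethylene list had 3 of 14 entries above the filter, the defensins given above, with a median late minus early difference of -1.84 and 3 of 3 below 0 (45.7% of all probe sets). The glucosinolate list had 3 of 24, with a median of -0.54. BCAT4, which starts the methionine chain elongation of aliphatic glucosinolates, was at -0.04, -0.30 and -1.11. AT2G31790 and UGT74B1, both glucosyltransferases of glucosinolate synthesis, were at -0.01, -0.39 and -0.71 and at -0.01, -0.20 and -0.63. All 3 were near 0 at 3 h and below 0 in both 5 h pairs.

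In the auxin list 4 of 15 entries were above the filter, and 3 had a late minus early difference below 0 (45.7% of all probe sets). The list median of -0.36 was 0.12 without replicate 2 of 5 h. HAT2, a homeodomain-leucine zipper factor that auxin is known to induce, had 7.25 and 7.89 at 3 h, 6.43 and 7.65 in replicate 1 of 5 h, and 6.56 and 7.83 in replicate 2. It was lower with estradiol in all pairs, by 0.64, 1.22 and 1.27, a late minus early difference of -0.60 (SE 0.17). GH3.17, GH3.3 and WES1, which conjugate auxin to amino acids, had 5 h pairs 1.35, 1.73 and 0.88 apart, more than their late minus early differences of -0.76, 0.07 and -0.12. In the cell wall list, XTH19, a xyloglucan-modifying enzyme, was at 0.60, -0.56 and -0.24, and XTH16, XTH18 and EXPA8 had late minus early differences from -0.25 to 0.10.

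The flavonoid and anthocyanin list, the pathway MYB112 is known for, had 5 of 27 entries above the filter and a median late minus early difference of 0.08, which was -0.10 without replicate 1 of 5 h. AT1G23390 (KFB-CHS, an F-box protein that targets chalcone synthase for breakdown) had 7.98 and 8.45 at 3 h, 9.62 and 10.92 in replicate 1 of 5 h, and 9.45 and 10.36 in replicate 2. Its differences were -0.47, -1.3 and -0.91, and the late minus early difference was -0.64 (SE 0.24). UGT78D1, UGT78D2, AT1G06000 and CHIL, enzymes or helpers of flavonol synthesis, had late minus early differences of 0.19, 0.28, 0.08 and 0.01. None of the 5 reached 2-fold in the late minus early difference.

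Photosynthesis genes (4 of 24 entries, the only 4 with a named probe set) had a median late minus early difference of -0.01 and a range from -0.20 to 0.14. The reference genes (5 of 9) had a median of 0.18 and a range from 0.04 to 0.33, all 5 above 0 (52.4% of all probe sets). In the abscisic acid and cold list (4 of 18), COR47 was at 0.25, 0.42 and 0.61 and the other members had late minus early differences from -0.38 to -0.06. The stomatal regulators FMA and SPCH were at 0.07, -0.38 and -1.17 and at -0.04, 0.03 and -1.29, with the low values in replicate 2 of 5 h. Of the defence list, WRKY53 was at 0.17, 0.55 and 0.35 and AT5G03350 at -0.19, -0.18 and 0.80.

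Lists with 1 or 2 members above the filter gave single values. The clock gene GI was at -0.16, -0.33 and -0.59, the cytokinin response gene RR16 at 0.00, 0.20 and 0.74, and the small heat shock gene AT2G29500 at -0.48, 0.17 and 0.60. For iron, PYE was at -0.52, 0.03 and -0.29 and AT1G47400 at -0.59, 0.40 and -1.08. The nitrate-list genes AT1G49500 and AT1G25550 had late minus early differences of -0.32 and 0.18, AT1G04770 of the sulfur list -0.12, and AT3G15450 of the carbon starvation list -0.44. The lists of MYB factors tied to MYB112 and of jasmonate genes had 0 members with a named probe set.

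**Figure D5:**
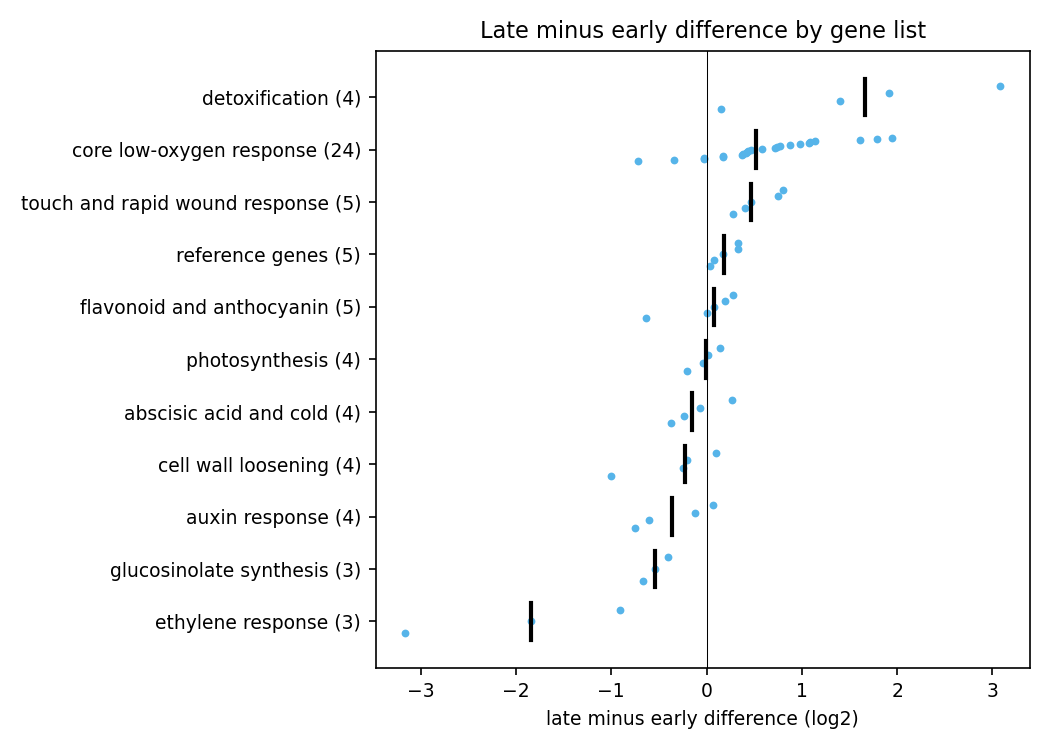
Late minus early difference (x axis, log2) of the members of the 11 gene lists with at least 3 members above the filter, the number of members in parentheses. Points are genes and vertical bars the list medians, from -1.84 (ethylene response) to 1.66 (detoxification).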

How the data were processed

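RNA of 6 shoot samples was hybridised to Affymetrix ATH1 arrays. The values deposited by the authors are on a log2 scale. The submitters' processing notes name GCRMA and RMA without version or role, and base 2 was read from the range of the values (2.1 to 15.35). Precision is limited by how few arrays there are. The 64 control probe sets were left out. Genes came from the platform annotation, updated by gene number to RefSeq (TAIR10.1): 13513 probe sets had 1 gene (13436 matched), 503 several and 8730 none listed. No coordinates or sequences are given, and the planned promoter comparison was not made.

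Differences were taken within pairs of the same time and replicate number; array correlations of 0.994 or more within pairs, and a lowest value of its own in each pair, led to this. The labels call the 5 h samples biological replicates without naming separate cultures, so p-values measure only the spread between these samples. No replicate check exists for 3 h. The filter was the 40th percentile of the table. Limma 3.58.1 (R 4.3.3; lmFit, eBayes with trend, Benjamini-Hochberg) was run on the paired differences. On simulated data of 14520 probe sets at this size, it called 22% of changes of 1, 84% of changes of 2 and 100% of changes of 4 on the log2 scale. It also made 4 false calls there. The simulated noise was normal, with the same spread for probe sets of like level, which the real probe sets need not have. These shares may therefore not hold for the real data, and the lack of calls does not show that large changes are absent.

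Members, lists and tests were chosen with earlier results of these data known. Of 392 list entries in 23 lists, 91 had a named probe set and 79 passed the filter, and the highest-mean probe set stood for a gene. Named genes were the 10 with the highest and the 10 with the lowest late minus early difference whose gap to 3 h exceeded the spread of the 5 h pairs, the 8 largest of each class and direction, up to 4 members per list, and the root markers. A few others were named after their values were seen: AT2G32020, UGT76E12, NDB4, PDC2, CHIL, AT5G52810, AT5G44910, AT1G12010, AT2G29340, AT4G24380, AT4G27657, AT4G19460, AT3G18560, AT5G58790, AT1G72920, IAGLU and Hsp70-2. Alternatives were another scaling, other filters, another fold, and leaving out each 5 h pair.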

Additional observations from a re-analysis of the deposited data

Results flagged for a closer look

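For 26 of the 114 genes examined singly, the 3 h difference had one sign and both 5 h differences the other. The share of all probe sets with such signs was not counted, so the number is no result about these genes. Limma's test of the difference passed for none of them (adjusted p of 0.988 or more). The late minus early differences of those that were higher with estradiol at 3 h and lower at 5 h were -3.16 for PDF1.2b, -1.84 for PDF1.2, -0.91 for PDF1.4, -1.36 for AT2G40480, -1.36 for AT4G11290, -1.28 for AT4G24810, -1.13 for AT4G24350 and -1.0 for XTH19. They were -0.84 for FMA, -0.76 for GH3.17, -0.32 for AT1G49500, -0.24 for COR15B, -0.20 for XTH16 and -0.20 for LHCB4.1. The genes with the reverse order were AT4G37290 at 2.59, AT1G66090 at 2.05, UGT73B4 at 1.92, AT2G29500 at 0.86, AT4G34270 at 0.33, PEX4 at 0.32 and UGT78D1 at 0.19. They also included NDB4 at 1.58, AT1G72920 at 1.57, AT3G18560 at 1.3, Hsp70-2 at 1.23 and IAGLU at 1.18, which were named after their values were seen. All 5 h values of AT4G37290 and NDB4, and those of UGT73B4 in replicate 2, were under 3.56, where a sign cannot be measured. Other signs rested on very small differences and may not be reversals. At 3 h COR15B and XTH16 were at 0.01, LHCB4.1 at 0.04, GH3.17 and FMA at 0.07, AT3G18560 at -0.02 and AT4G34270 at -0.04. In replicate 1 of 5 h LHCB4.1 and GH3.17 were at -0.01.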

How the results depend on the processing

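Most counts depend on which 5 h pair is used. A class asks for both pairs, and the late minus early difference takes their mean. Without a 5 h pair, the 2-fold late minus early count ran from 215 to 236 higher (main 136) and from 84 to 286 lower (main 78), so that the share of higher ones was 42.9% without replicate 1, 73.8% without replicate 2 and 63.6% with both. Class counts without 1 pair were 16 and 16 early-only higher, 33 to 38 early-only lower, 100 to 145 late-only higher, 60 to 229 late-only lower, 10 to 14 lasting higher, 18 to 26 lasting lower, 0 to 3 opposite after a higher 3 h value and 1 to 6 after a lower one. At 1.5-fold the counts were 559 higher and 482 lower, with 102 and 149 early-only, 113 and 94 late-only, 17 and 23 lasting, and 1 and 1 opposite. Early-only higher were 15 with no filter and 5 with a filter in every pair, and early-only lower were 9 with the latter, which keeps probe sets of at least 3.56 in 1 array of each pair.

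Without a filter limma called 57 probe sets, 56 of them under the filter, and the 5 h differences of all 57 agreed within 0.015, the largest size being 1.27. Without the replicate block, without any single 5 h array, after quantile normalization, without a trend and with a filter in every pair it called 0. Median differences of 3 lists took both signs without 1 or the other 5 h pair, namely auxin (-0.71 to 0.12), abscisic acid and cold (-0.34 to 0.07) and flavonoid (-0.10 to 0.18), as did photosynthesis. Low oxygen ran from 0.50 to 0.81, detoxification from 1.29 to 2.02, glucosinolate from -0.70 to -0.26, the ethylene list from -2.03 to -1.65, touch from 0.15 to 0.87, the cell wall list from -0.24 to -0.21, the reference genes from 0.08 to 0.27 and photosynthesis from -0.025 to 0.05. After quantile normalization photosynthesis was at -0.0708 and the cell wall list at -0.26, and after centring photosynthesis was at -0.0025. Of 114 genes examined singly, 18 took both signs in this way. CML38 ran from -0.17 to 1.11, and AT5G48430, the only one of the 18 at least 2-fold apart with both pairs, ran from -0.08 without replicate 2 of 5 h to 2.61 without replicate 1.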

Other observations

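Families sharing a symbol prefix, with at least 5 members above the filter, were looked at after their values were seen. The UDP-glycosyltransferases (UGT) had 20 of 26 members above 0 in the late minus early difference (52.4% of all probe sets), with a median of 0.23, and of 0.21 and 0.34 without replicate 1 or 2 of 5 h. Their medians in the 3 pairs were -0.12, 0.20 and -0.02. The calmodulin-like genes (CML) had 5 of 6 above 0 (52.4% of all probe sets) and a median of 0.45. The sugar transporters of the SWEET family had 4 of 5 below 0 (45.7% of all probe sets) and a median of -0.48. The beta-glucosidases (BGLU) had 6 of 8 below 0 (45.7%) and a median of -0.41. The families are small and were picked with their values known, so these counts are no independent evidence. These medians kept their sign after quantile normalization, after centring and without either 5 h pair.

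AT1G72920, another gene with a TIR domain, was at -0.46, 1.64 and 0.58 in the 3 pairs. IAGLU, an indole-3-acetate glucosyltransferase, was at -0.35, 0.96 and 0.69, and Hsp70-2 at -0.83, 0.63 and 0.16. A late minus early difference of 2-fold or more was also found for 59 higher and 48 lower probe sets with no named gene here. Of the 64 control probe sets, 3 were at least 2-fold apart in replicate 2 of 5 h and 0 in either other pair.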
